A study of Mus musculus with 12 samples.

Results

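The 36 genes described here encode the enzymes of nucleotide synthesis and of the pentose phosphate pathway. They were taken by symbol from a fixed list out of 17007 genes listed, all 36 were found, and all 36 passed the filter on low values that left 14397 genes to test. RNA was sequenced from 12 mice in 4 groups of 3. Normal liver (NL) came from wild-type C57BL/6 mice. The other 3 groups were c-MYC/MCL1/Rictor KO Tsc2 KO hepatocellular carcinomas (HCCs) grown in mice of the C57BL/6J background that were Tsc2 fl/fl and Rictor fl/fl, whose hepatocytes were transfected in vivo by hydrodynamic tail vein injection with plasmids for c-MYC, MCL1 and Cre. Tumor-bearing mice received vehicle, MLN0128 at 1 mg/kg/day or everolimus at 1 mg/kg/day by gavage on 6 days of each week for 3 weeks, starting 6 days after injection, and were sacrificed 3.7 weeks after injection, as the labels give it. A drug course of only 3 days is also given for the sequenced tumors in the text on the experiment, and which of these courses applies to the libraries could not be settled from the values, so that the length of exposure behind each drug value is uncertain. Loss of Rictor and Tsc2 is shared by all the tumors, vehicle-treated ones included, and whole tumor tissue was taken, so that untransfected cells of the host, with both genes intact, were sampled too. Age is not given in the sources used here, and mice of both sexes were used in the study. MLN0128 blocks the mTOR kinase in both of its complexes, whereas everolimus, a relative of rapamycin, targets mTOR complex 1 (mTORC1). The study used everolimus to inhibit part of the output of mTORC1 and MLN0128 to inhibit more of it. Inhibition itself was not measured in these libraries, which also hold host cells with Rictor intact.

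Cells make nucleotides from ribose 5-phosphate, amino acids, bicarbonate and one-carbon units. The pentose phosphate pathway turns glucose 6-phosphate into ribose 5-phosphate, and its oxidative branch also makes NADPH. PRPP synthetases activate the ribose, the purine ring is then built on it step by step up to IMP, and the pyrimidine ring is built first and joined to ribose afterwards. Salvage enzymes reuse free bases and nucleosides, and ribonucleotide reductase supplies deoxynucleotides for DNA. MYC is known to bind the promoters of many of these genes at the E-box sequence CACGTG, and mTORC1 is known to act on CAD, on the supply of one-carbon units and on the transcription of pentose phosphate genes. Normal adult liver is a quiescent organ that makes purines for other tissues and degrades both purines and pyrimidines.

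Because the tumors were driven by c-MYC, the promoters were searched for the letters CACGTG, which read the same on both strands. RefSeq promoter windows on GRCm38.p6, from 250 bases before to 50 bases after each start, were at hand for 34 of the members, with the windows of Pfas and Dhodh not used here. The motif was found in 6 of these 34 genes (17.6%), against 8.09% of all 27025 genes with a window. By window, 7 of 41 (17.1%) held it, against 7.15% of 32851. The matches are shown with 12 bases on either side, 5′ to 3′ on the strand of the gene, with the motif in capitals.
Atic, chr1:71557137-71557166, plus strand, at the first base of the annotated 5′ exon: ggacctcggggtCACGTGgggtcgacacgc
Dtymk, chr1:93802065-93802094, minus strand, upstream of the annotated gene: gtctcgaacttcCACGTGaccagagcctgc
Impdh2, chr9:108560314-108560343, plus strand, in the annotated 5′ exon: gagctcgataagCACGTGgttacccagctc
Nme1, chr11:93968037-93968066, minus strand, within the gene and outside its exons: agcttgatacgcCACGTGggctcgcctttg
Nme1, chr11:93968273-93968302, minus strand, in an annotated 5′ exon: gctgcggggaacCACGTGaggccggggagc
Paics, chr5:76951087-76951116, plus strand, inside the 5′ exon of the divergent neighbour Ppat: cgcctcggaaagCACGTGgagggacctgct
Tyms, chr5:30073669-30073698, minus strand, upstream of the annotated gene: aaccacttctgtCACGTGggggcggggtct
The members with and without the motif overlapped in their change from normal liver to tumor. The log2 fold changes ran from -1.26 to 2.28 (median 0.77) in the 6 with it and from -0.87 to 4.45 (median 1.23) in the 28 without it. A match of letters is a description of this window and says nothing about binding.

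Expression is given as library-scaled fragments per kilobase of transcript (FPKM), always in the order of replicates 1, 2 and 3. The libraries held 17162501 to 25180770 reads, recovered from the FPKM and exon lengths. Member genes had at least 16 reads in every library, with a median of 1780. Fold changes are differences of log2(FPKM + 1) with their standard error (SE), which understates the change of genes at low FPKM, and adjusted p-values are from limma's moderated test, adjusted over all 14397 genes. A stricter test, limma's treat, asked whether a change was beyond 1.5-fold. MLN0128 replicates 1 and 2 stood apart from the other 10 libraries. They held 191 and 155 FPKM of Xist, the RNA of the inactive X chromosome, and 0 FPKM of 4 Y-linked genes, against at most 0.0699 FPKM of Xist elsewhere. This is the pattern of female mice. The other 10 libraries had that of males, with 9.6 FPKM or more of the Y-linked gene Ddx3y. Sex was thus mixed in the MLN0128 group alone, and in its replicates 1 and 2 it cannot be told apart from the drug. Each comparison with MLN0128 was therefore also run with replicate 3 alone in its group, where the spread is taken from the other groups and the lone library is assumed to vary like them. Fewer genes of all passed these comparisons. Of the members, 5 lie on the X chromosome (G6pdx, Prps1, Prps2, Hprt and Ctps2). Tsc2 was at 4.50 to 5.32 FPKM in normal liver and 2.01 to 3.96 FPKM in the tumors. Rictor was at 1.65 to 2.57 FPKM in normal liver. It was at 1.05 to 1.5 FPKM under vehicle, below every normal liver. With MLN0128 it was at 1.65 to 2.21 FPKM and under everolimus at 1.58 to 1.93, overlapping normal liver. Tsc2 was at 2.01 to 2.31 FPKM under vehicle, 2.81 to 3.96 under MLN0128 and 2.78 to 2.87 under everolimus. For both genes every drug-treated tumor thus lay above every vehicle-treated one, as for 22.1% of all genes under MLN0128 and 17.6% under everolimus. These values do not show whether the floxed exons were missing, since FPKM cover the whole gene. Whether the share of cells with the deletions differed between vehicle and drug groups was not tested, nor was its part in the drug comparisons.

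Most enzymes of nucleotide synthesis were higher in the vehicle-treated tumors than in normal liver. By the moderated test 27 of 36 rose and 3 fell, where 36% of all tested genes rose and 33.0% fell. By treat 23 rose and 1 fell, against 15.9% and 16.9% of all genes. The median log2 fold change of the 36 was 1.23 (0.06 over all genes tested). In 30 of them every vehicle-treated tumor lay above every normal liver and in 3 every tumor lay below, against 39.0% and 35.1% of all genes. Ribonucleotide reductase subunit Rrm2 (log2 fold change 4.45), Impdh1 (3.79), Ctps (3.27), Uck2 (3.27), G6pdx (3.09) and Cad (3.05) had the largest increases. The 3 members that fell were Paics, Tk1 and Rpe. The count of members that fell depended on the scaling between libraries. The deposited FPKM carry factors of 0.585 to 0.596 in normal liver and 1.10 to 1.37 in tumors relative to plain library totals. With plain totals, 34 members rose and 1 fell, where 61.3% of all genes rose and 15.2% fell and the median of all genes moved up by 0.56.

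**Figure D1:**
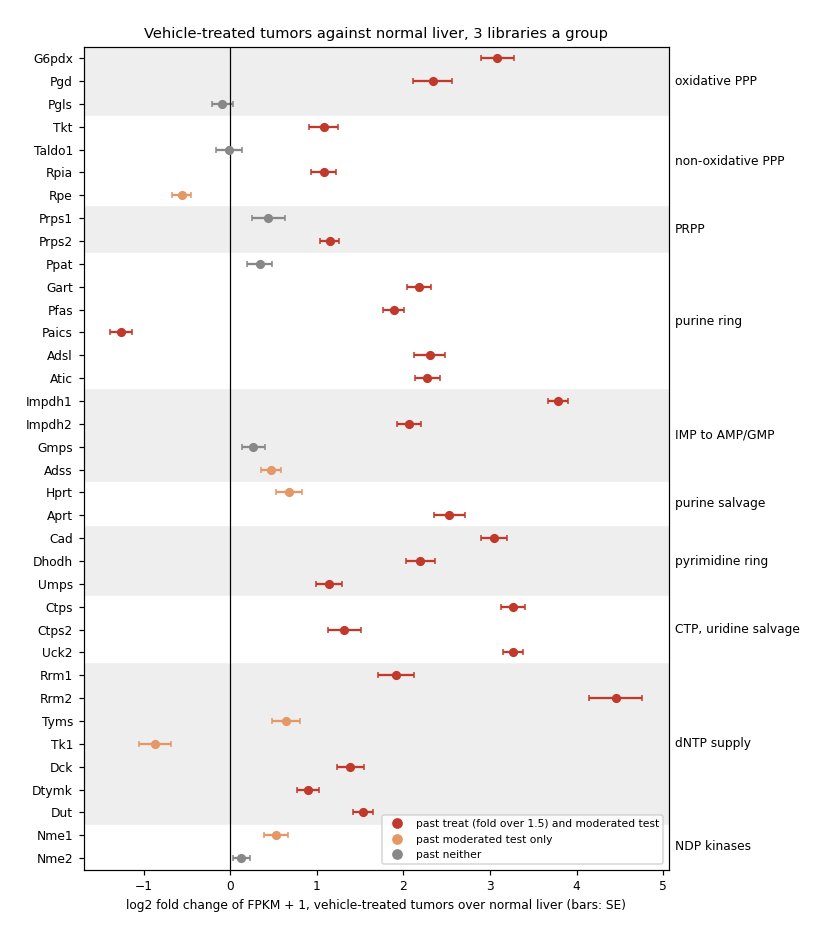
The horizontal axis gives the log2 fold change of FPKM + 1 in vehicle-treated tumors over normal liver for the 36 members, with bars for the SE, ordered by arm of the pathway. Red points passed both tests, orange points the moderated test alone and grey points neither. Paics, Tk1 and Rpe are the members called to the left of 0.

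The tissues differed in more than these enzymes. All 22 genes of a cell cycle list rose in the tumors (median log2 fold change 3.07), and their summed FPKM went from 38.6 to 50.9 in normal liver to 357 to 408 under vehicle. All 10 hepatocyte markers fell, from a sum of 84973 to 106029 FPKM in normal liver to 4423 to 6763 FPKM. In bulk tissue, fewer cells of a type and less RNA per cell cannot be told apart. The part of proliferation and of cell composition in the changes of the members was not tested.

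The oxidative branch of the pentose phosphate pathway was high in the tumors at its dehydrogenases. These were lower with both drugs than under vehicle. In the fit of all 12 libraries only the MLN0128 differences passed the test. Which drug's differences passed depended on the libraries fitted. G6pdx encodes glucose-6-phosphate dehydrogenase, the entry enzyme of the pathway (chrX:74409483-74429194, minus strand, on GRCm38 like all gene positions here). Its FPKM were 1.90, 1.56 and 1.93 in normal liver, 21.1, 22.0 and 25.2 under vehicle, 12.8, 8.53 and 16.4 under MLN0128, and 17.0, 13 and 16.3 under everolimus. Every tumor thus lay above every normal liver, and every drug-treated tumor lay below every vehicle-treated one. Of all genes, 23.4% lay wholly below vehicle under MLN0128 and 14.8% under everolimus, and 22.1% and 17.6% wholly above. The mean was 12.7-fold higher under vehicle than in normal liver, which is 3.09 ± 0.19 (SE) on the log2 scale (adjusted p = 1.03e-07). With MLN0128 it fell by 0.85 ± 0.19 on the log2 scale relative to vehicle (adjusted p = 0.00628), and the difference under everolimus was -0.54 ± 0.19 (adjusted p = 0.0954). The 2 lowest G6pdx values under MLN0128 were those of the libraries with Xist RNA. With MLN0128 replicate 3 alone the difference was -0.45, against -0.54 for everolimus. The MLN0128 call was lost there and with equal sums of FPKM (adjusted p = 0.0669), and kept in 20 of 22 alternatives. The exons of G6pdx share 418 of 3080 bases with Ikbkg on the other strand, and reads there cannot be told apart unless strand was used in counting.

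Pgd, the second dehydrogenase of the branch, had the same order of groups. It had 7.05, 7.62 and 5.01 FPKM in normal liver and 36.1, 28.9 and 47.4 under vehicle. With MLN0128 it was at 18.1, 14.9 and 26.5 FPKM and under everolimus at 21.4, 20.2 and 24.8. Neither drug group overlapped with vehicle, and both stayed above normal liver. The log2 fold change was 2.34 ± 0.22 for tumor over normal liver (adjusted p = 2.83e-06), -0.89 ± 0.22 for MLN0128 over vehicle (adjusted p = 0.0109) and -0.71 ± 0.22 for everolimus over vehicle (adjusted p = 0.066). The MLN0128 call was kept in 20 of 22 alternatives. It was lost with equal sums of FPKM (adjusted p = 0.0833) and with replicate 3 alone, where the difference was -0.46, against -0.71 for everolimus. Pgls, the lactonase between these dehydrogenases, was at 18 to 25.2 FPKM in all 12 libraries and passed neither test in any comparison. The difference between MLN0128 and everolimus passed the test for none of the 3 genes (adjusted p of 0.325 for G6pdx, 0.657 for Pgd and 0.989 for Pgls).

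The non-oxidative branch, which interconverts sugar phosphates and can make ribose 5-phosphate without NADPH, was split. Transketolase (Tkt) had 24.2, 32.6 and 23.8 FPKM in normal liver and 58.9, 51.5 and 61.7 under vehicle (log2 fold change 1.08 ± 0.16, adjusted p = 0.000107). Under MLN0128 it was at 50.8, 49.9 and 52.5 FPKM and under everolimus at 57.5, 39.7 and 57.5, so that both drug groups remained above normal liver. Rpia, the isomerase that makes ribose 5-phosphate, went from 1.42, 1.2 and 0.769 FPKM to 3.25, 3.66 and 3.48 under vehicle (1.08 ± 0.15, adjusted p = 4.26e-05). It was at 3.82, 2.95 and 3.17 FPKM under MLN0128 and 3.62, 3.28 and 4.64 under everolimus, overlapping vehicle in both cases.

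Transaldolase (Taldo1) did not pass the test between tumor and normal liver but fell under MLN0128. Its FPKM were 75.7, 75.4 and 55.3 in normal liver, 73.7, 56.4 and 73.1 under vehicle, 42.3, 41.7 and 46.5 under MLN0128 and 62.4, 55.3 and 65.9 under everolimus. All 3 MLN0128 libraries lay below every other library. The change from vehicle was -0.62 ± 0.15 under MLN0128 (adjusted p = 0.00982) and -0.14 ± 0.15 under everolimus (adjusted p = 0.611), and the difference between the drugs had an adjusted p of 0.0685. With replicate 3 alone the change was -0.52. The MLN0128 call was lost there and with equal sums of FPKM (adjusted p = 0.117), and kept in 20 of 22 alternatives. Rpe, the epimerase of the branch, was named after its values were seen, as were Paics, Tk1, Gart, Umps and Dut further on, because these genes passed a test but fall outside the rule for named genes. Rpe had 25.6, 22.5 and 25.3 FPKM in normal liver and 15.7, 17.4 and 15.6 under vehicle, and it fell by 0.56 ± 0.11 on the log2 scale (adjusted p = 0.000905), a direction that turned to 0.33 with plain library totals and 0.59 with equal sums of FPKM. With MLN0128 it was at 11, 13.5 and 11.4 FPKM, a further -0.41 ± 0.11 from vehicle (adjusted p = 0.017). That call was lost without vehicle replicate 2 (adjusted p = 0.0572), without MLN0128 replicate 1 (0.0716) and with equal sums of FPKM (0.183). It was also lost with replicate 3 alone, where the difference was -0.47. The lowest adjusted p over 22 alternatives was 0.0115. Rpe shares 558 of its 3113 exonic bases with Kansl1l on the other strand.

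The PRPP synthetases differed between isozymes. Prps2 (chrX:167346322-167382749) rose from 6.01, 6.18 and 6.41 FPKM to 14.7, 13.8 and 16.4 in the vehicle-treated tumors (1.15 ± 0.12, adjusted p = 4.02e-06). Prps1 was the more abundant isozyme and overlapped, at 25.7, 24.8 and 30.8 FPKM in normal liver and 29.7, 49.6 and 34.2 under vehicle (0.44 ± 0.19, adjusted p = 0.056). Neither passed the test with a drug. Prps1 was at 45.1, 38.6 and 46.9 FPKM under MLN0128 and 55.8, 39.0 and 48.3 under everolimus. Prps2 was at 17.6, 17.1 and 15.5 FPKM under MLN0128 and 20.7, 15.7 and 17.9 under everolimus.

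The purine ring is built by 6 genes, and 4 of them rose in the tumors. Adsl encodes adenylosuccinate lyase, which also acts between IMP and AMP. It had 4.08, 5.42 and 2.65 FPKM in normal liver and 22.4, 23.7 and 23.9 under vehicle (2.31 ± 0.18, adjusted p = 5.75e-07). Atic, which carries out the last 2 steps to IMP, was at 3.66, 4.58 and 3.05 FPKM and 19.9, 23.8 and 22.1 (2.28 ± 0.15, adjusted p = 1.47e-07). Gart, a trifunctional enzyme of the ring, went from 7.14, 8.34 and 6.26 FPKM to 32.1, 39.7 and 36.9 (2.18 ± 0.14, adjusted p = 1.14e-07). Pfas, which adds a ring nitrogen from glutamine (chr11:68985697-69008460), went from 1.43, 1.51 and 1.51 FPKM to 7.95, 8.92 and 7.72 (1.89 ± 0.12, adjusted p = 1.65e-07). Each of these rose about 5-fold or more as a ratio of means (5.76-fold for Adsl, 5.83-fold for Atic, 5-fold for Gart and 5.53-fold for Pfas).

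Paics and Ppat, neighbours that are transcribed apart from a shared 5′ region on chromosome 5, did not follow. Ppat, the committing enzyme of the path, had 16.7, 17.5 and 22.5 FPKM in normal liver and 24.0, 23.6 and 24.3 under vehicle (0.34 ± 0.15, adjusted p = 0.0586). Paics was already the most abundant ring enzyme in normal liver, at 142, 145 and 180 FPKM, and was at 63.2, 64.4 and 64.0 under vehicle. It fell by 1.26 ± 0.12 on the log2 scale (adjusted p = 3.31e-06), and the difference was -0.08 (adjusted p = 0.574, the highest of 22 alternatives) with equal sums of FPKM. The exons of the pair share 272 bases on opposite strands.

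With the drugs, all 6 ring genes had positive differences from vehicle, of which those of Pfas and Gart passed the test for at least 1 drug. With MLN0128 replicate 3 alone the difference of Ppat was -0.18 (adjusted p = 0.619). Pfas was at 14.9, 10.7 and 11.8 FPKM under MLN0128 (0.54 ± 0.12 over vehicle, adjusted p = 0.00685) and at 15, 12.7 and 13.9 under everolimus (0.69 ± 0.12, adjusted p = 0.00625), above every vehicle-treated tumor in both groups. The everolimus call was kept under all 22 alternatives (adjusted p from 0.00419 to 0.0356). The MLN0128 call was lost with replicate 3 alone (0.48, adjusted p = 0.0609, range 0.00247 to 0.0609). Gart was at 58.5, 49.7 and 43.1 FPKM under MLN0128 (0.46 ± 0.14, adjusted p = 0.0235) and at 48.6, 48.0 and 47.0 under everolimus (0.40 ± 0.14, adjusted p = 0.086). Its MLN0128 call was lost without vehicle replicate 1 (adjusted p = 0.0937), without vehicle replicate 3 (0.0565), without MLN0128 replicate 1 (0.103) and with replicate 3 alone (0.374), in a range of 0.00471 to 0.374. Gart also shares 1014 of 5144 exonic bases with Gm15964 on the other strand. Adsl was at 33.3, 24.7 and 29.2 FPKM under MLN0128 and 31.2, 27.2 and 29.8 under everolimus, and Atic at 30.4, 27.8 and 24.4 and 31.2, 24.0 and 29.9. Both lay above vehicle in every drug-treated tumor without passing the test (adjusted p of 0.23 and 0.281 for Adsl, 0.124 and 0.151 for Atic). Of all genes, 22.1% lay wholly above vehicle under MLN0128 and 17.6% under everolimus. The MLN0128 and everolimus comparisons share the vehicle libraries.

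**Figure D2:**
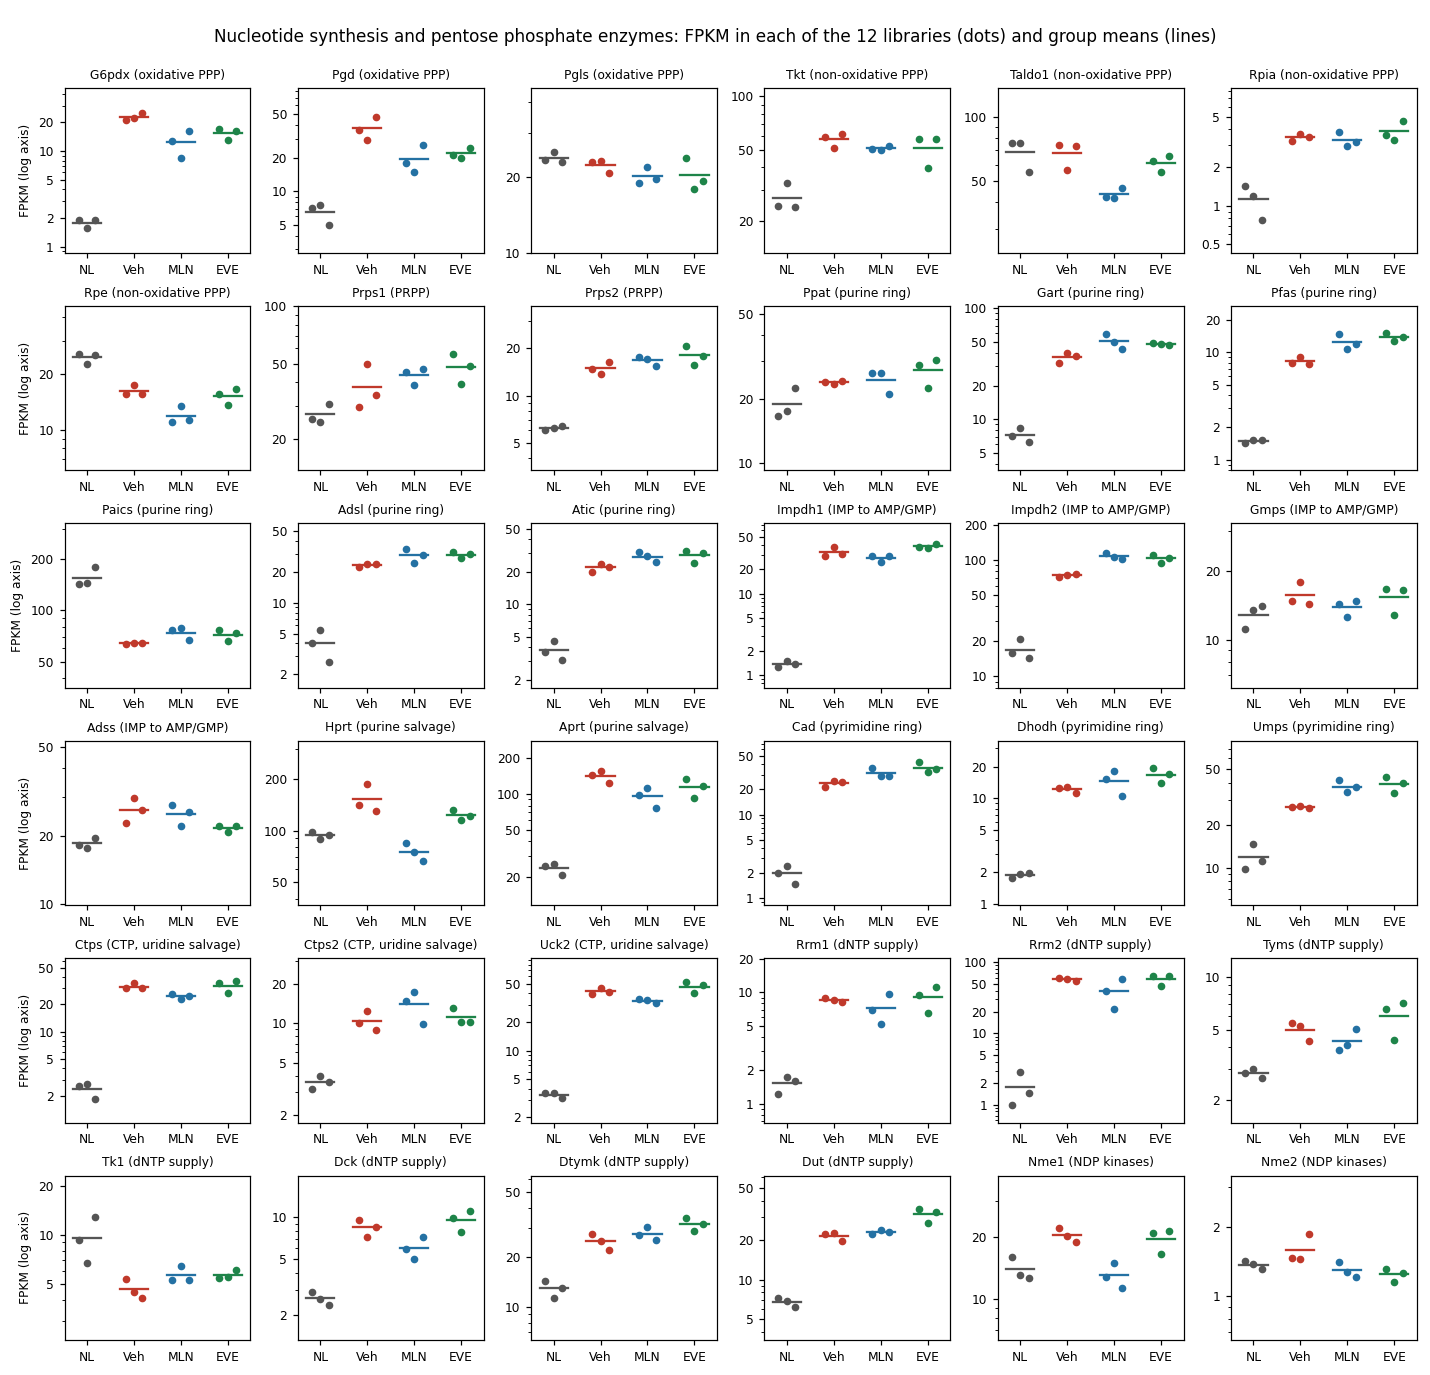
Each panel shows 1 member gene, with FPKM on a log axis against normal liver (NL), vehicle (Veh), MLN0128 (MLN) and everolimus (EVE). Dots are the 3 libraries of a group and lines the group means, and panel titles give the arm of the pathway. In most panels the 9 tumor libraries lie above the 3 normal livers, and Rpe, Paics and Tk1 show the opposite order.

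From IMP, the guanine branch starts at IMP dehydrogenase, whose isozymes both rose. Impdh1 (chr6:29200434-29216364) had 1.27, 1.51 and 1.40 FPKM in normal liver and 28.7, 37.1 and 30.8 under vehicle, 23.1-fold higher by the means (3.79 ± 0.12, adjusted p = 6.86e-10). Impdh2 (chr9:108560286-108565584) was at 15.8, 20.8 and 14.4 FPKM and 70.7, 74.2 and 75.6 (2.06 ± 0.13, adjusted p = 1.6e-07). Impdh2 was higher under MLN0128 at 114, 105 and 101 FPKM (0.53 ± 0.13, adjusted p = 0.0115) and under everolimus at 110, 93.3 and 104 (0.47 ± 0.13, adjusted p = 0.0485), with no overlap with vehicle in either. Impdh1 was at 29.1, 24.7 and 29.4 FPKM under MLN0128 and 37.5, 36.8 and 40.6 under everolimus, overlapping vehicle both times. It was lower under MLN0128 than under everolimus by 0.45 ± 0.12 on the log2 scale (adjusted p = 0.0348).

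The MLN0128 call of Impdh2 was lost only with replicate 3 alone (0.45, adjusted p = 0.159, range over 22 alternatives 0.00238 to 0.159). Its everolimus call was lost in 13 of 22 alternatives, with adjusted p from 0.0267 to 0.17. Among single libraries left out these were vehicle replicate 1 (0.139), 2 (0.087) and 3 (0.123), everolimus replicates 1 (0.17) and 3 (0.121), NL replicate 1 (0.068), and MLN0128 replicates 1 (0.061) and 2 (0.0523), where the difference itself stayed between 0.42 and 0.49. Gmps, the next enzyme towards GMP, passed no test in any comparison (0.27 ± 0.14 in tumors, adjusted p = 0.104). Adss, the first enzyme towards AMP, rose in the tumors (0.47 ± 0.12, adjusted p = 0.00358) and passed no test with a drug.

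Both purine salvage members, Hprt and Aprt, were higher in the tumors and lower again under MLN0128. Hprt returns hypoxanthine and guanine to nucleotides (chrX:52988137-53021659). It had 98.3, 89.0 and 93.9 FPKM in normal liver, 142, 186 and 130 under vehicle, 84.4, 74.9 and 66.1 under MLN0128 and 132, 115 and 121 under everolimus. The MLN0128-treated tumors lay below all other libraries, normal liver included. Hprt rose by 0.68 ± 0.15 in the tumors (adjusted p = 0.00151). It fell by 1.00 ± 0.15 on the log2 scale under MLN0128 relative to vehicle (adjusted p = 0.000701), the largest decrease of the 36 with a drug, and by 0.70 ± 0.15 relative to everolimus (adjusted p = 0.0177). The difference between everolimus and vehicle was -0.30 ± 0.15 (adjusted p = 0.223). The MLN0128 call held under all 22 alternatives, with adjusted p from 0.000428 to 0.01. With replicate 3 alone, which holds no Xist RNA, the difference was -1.18.

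Aprt, the salvage enzyme of adenine, had 24.9, 25.7 and 20.7 FPKM in normal liver and 145, 157 and 124 under vehicle (2.53 ± 0.18, adjusted p = 2.8e-07). With MLN0128 it was at 99.0, 112 and 75.7 FPKM, below every vehicle-treated tumor, and under everolimus at 134, 93.5 and 118. It fell by 0.58 ± 0.18 on the log2 scale under MLN0128 (adjusted p = 0.0279), and the everolimus difference was -0.31 ± 0.18 (adjusted p = 0.294). The MLN0128 call was lost without vehicle replicate 1 (adjusted p = 0.0766) or 2 (0.0866) without MLN0128 replicate 1 (0.0603) or 3 (0.0865) and with equal sums of FPKM (0.0535), in a range of 0.0182 to 0.0866 over 22 alternatives. With MLN0128 replicate 3 alone, Aprt was 0.89 lower (log2 fold change -0.89).

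All 3 genes of de novo pyrimidine synthesis rose in the tumors and had positive differences from vehicle with both drugs, except that Dhodh was at -0.20 (adjusted p = 0.499) with MLN0128 replicate 3 alone. Cad carries the first 3 activities of the path in 1 protein (chr5:31054780-31078479). It had 2.03, 2.45 and 1.49 FPKM in normal liver and 21.3, 25.2 and 24.2 under vehicle, 11.8-fold higher by the means (3.05 ± 0.15, adjusted p = 2.21e-08). With everolimus it was at 42.3, 31.9 and 34.9 FPKM (0.60 ± 0.15 over vehicle, adjusted p = 0.0303) and under MLN0128 at 35.5, 28.8 and 28.6 (0.38 ± 0.15, adjusted p = 0.0773). Every drug-treated tumor lay above every vehicle-treated tumor. The everolimus call was lost without vehicle replicate 1 (adjusted p = 0.109) or 3 (0.0866) and without everolimus replicate 1 (0.129) or 3 (0.0666), in a range of 0.0217 to 0.129 over 22 alternatives.

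Dhodh, the mitochondrial dehydrogenase of the path, had 1.76, 1.91 and 1.98 FPKM in normal liver and 12.6, 12.8 and 11.3 under vehicle (2.20 ± 0.17, adjusted p = 6.18e-07). It was at 15.4, 18 and 10.5 FPKM under MLN0128, which overlapped vehicle, and at 19.5, 14.0 and 16.9 under everolimus, which did not (adjusted p of 0.375 and 0.146). Umps makes UMP from orotate. It went from 9.74, 14.7 and 11.2 FPKM to 27.1, 27.5 and 26.6 in the tumors (1.14 ± 0.15, adjusted p = 3.09e-05). It was at 41.6, 34.3 and 37.1 FPKM under MLN0128 (0.46 ± 0.15, adjusted p = 0.0347) and 44.3, 33.8 and 40.1 under everolimus (0.52 ± 0.15, adjusted p = 0.049), and no drug-treated tumor overlapped with vehicle. Both calls were near the threshold. Leaving out vehicle replicate 1, 2 or 3 gave adjusted p of 0.082, 0.0669 and 0.0921 under MLN0128 and 0.122, 0.0854 and 0.146 under everolimus. Leaving out MLN0128 replicate 1 or 3 gave 0.127 and 0.058 under MLN0128, and 0.0577 and 0.0526 under everolimus. The everolimus call was also lost without NL replicate 3 (0.0608) and without everolimus replicates 1 (0.181) or 3 (0.121). The ranges over 22 alternatives were 0.00821 to 0.204 under MLN0128 and 0.03 to 0.181 under everolimus.

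CTP synthesis and uridine salvage held some of the largest tumor increases. Ctps, CTP synthase 1 (chr4:120539868-120570276), had 2.57, 2.71 and 1.82 FPKM in normal liver and 30.0, 34.0 and 30.0 under vehicle (3.27 ± 0.14, adjusted p = 7.56e-09). Its isozyme Ctps2 went from 3.16, 4 and 3.59 FPKM to 10.1, 12.4 and 8.97 (1.32 ± 0.19, adjusted p = 6.98e-05). Uck2, a uridine and cytidine kinase (chr1:167222883-167285320), went from 3.56, 3.63 and 3.16 FPKM to 39.0, 45.4 and 41.2 (3.27 ± 0.12, adjusted p = 2.1e-09). Ctps was lower in every MLN0128-treated tumor than in any vehicle-treated one, at 25.7, 22.9 and 24.6 FPKM (-0.35 ± 0.14, adjusted p = 0.0767), and was at 34.1, 26.6 and 35.7 under everolimus. Ctps2 was at 14.9, 17.4 and 9.81 FPKM under MLN0128, where its 2 highest values were those of the libraries with Xist RNA, and at 13, 10.2 and 10.2 under everolimus.
Uck2 was likewise below vehicle in every MLN0128-treated tumor, at 35.0, 34.1 and 31.4 FPKM (-0.31 ± 0.12, adjusted p = 0.0594). With everolimus it was at 51.9, 40.2 and 48.8 FPKM. The difference between the drugs, -0.47 ± 0.12, passed the test (adjusted p = 0.0302).

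Deoxynucleotide supply rose in 6 of its 7 genes in the tumors, with the small subunit of ribonucleotide reductase first. Rrm2 (chr12:24708241-24714146) had 1.00, 2.85 and 1.45 FPKM in normal liver and 59.9, 57.2 and 55.0 under vehicle, 32.5-fold higher by the means (4.45 ± 0.30, adjusted p = 2.26e-07). The large subunit Rrm1 went from 1.22, 1.75 and 1.62 FPKM to 8.87, 8.54 and 8.15 (1.92 ± 0.21, adjusted p = 7.92e-06). With MLN0128 both varied widely between mice, Rrm2 at 39.8, 22.3 and 57.5 FPKM and Rrm1 at 6.97, 5.17 and 9.74, and neither passed the test (adjusted p of 0.147 and 0.419). The summed FPKM of the cell cycle list had the same order in these 3 libraries, at 323, 253 and 524, and its part in the values was not tested. With everolimus Rrm2 was at 63.5, 46.5 and 63.1 FPKM and Rrm1 at 9.51, 6.50 and 11.3, and both overlapped vehicle.

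Dck, deoxycytidine kinase, had 2.89, 2.59 and 2.36 FPKM in normal liver and 9.63, 7.24 and 8.56 under vehicle (1.39 ± 0.16, adjusted p = 9.86e-06). It was at 5.89, 5.01 and 7.27 FPKM under MLN0128 and 9.96, 7.84 and 11.1 under everolimus, and the drugs differed by -0.59 ± 0.16 (MLN0128 minus everolimus, adjusted p = 0.0376). Dut, the dUTPase that keeps uracil out of DNA, went from 7.23, 6.89 and 6.24 FPKM to 22.1, 22.7 and 19.7 in the tumors (1.53 ± 0.11, adjusted p = 3.82e-07). It rose further under everolimus to 34.5, 27.1 and 32.9 FPKM (0.53 ± 0.11, adjusted p = 0.0146) and overlapped vehicle under MLN0128 at 22.1, 23.7 and 23.1. The everolimus call of Dut was lost without vehicle replicate 3 (adjusted p = 0.074), everolimus replicate 1 (0.0733) or everolimus replicate 3 (0.0535), in a range of 0.00619 to 0.074. Tyms and Dtymk, which make and phosphorylate dTMP, rose in the tumors by 0.64 ± 0.16 (adjusted p = 0.00327) and 0.90 ± 0.13 (adjusted p = 5.7e-05). Neither passed the test with a drug.
Tk1, the salvage thymidine kinase usually linked to S phase, had the opposite order. It had 9.26, 6.77 and 12.8 FPKM in normal liver and 5.41, 4.49 and 4.11 under vehicle, and it fell by 0.87 ± 0.18 on the log2 scale (adjusted p = 0.0011), a change that was -0.06 with plain library totals (adjusted p = 0.756, the highest of 22 alternatives) and turned to 0.18 with equal sums of FPKM. Tk1 shares 83 exonic bases with Afmid on the other strand.

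The nucleoside diphosphate kinases, which pass phosphate from ATP to the other nucleoside diphosphates, were the last step measured, and Nme1 rose in the tumors and fell under MLN0128. Nme1 had 16.0, 13.1 and 12.6 FPKM in normal liver, 22.1, 20.2 and 18.8 under vehicle, 12.7, 14.9 and 11.3 under MLN0128 and 20.8, 16.5 and 21.3 under everolimus. It rose by 0.52 ± 0.14 in the tumors (adjusted p = 0.00554) and fell by 0.62 ± 0.14 on the log2 scale under MLN0128 relative to vehicle (adjusted p = 0.00648), a call kept in all 22 alternatives (adjusted p from 0.00437 to 0.0291). It also fell by 0.56 ± 0.14 relative to everolimus (adjusted p = 0.0325). Nme2 was listed at 1.43, 1.39 and 1.31 FPKM in normal liver, 1.47, 1.46 and 1.87 under vehicle, 1.41, 1.28 and 1.21 under MLN0128 and 1.31, 1.16 and 1.27 under everolimus, from 16 to 51 reads. It passed no test. Nme2 shares 573 of its 1171 exonic bases, and Nme1 418 of 3342, with the gene Gm20390 on the same strand, so the low level of Nme2 cannot be separated from the way reads in shared exons were assigned.

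Over all arms, most members stayed above normal liver with either drug. Every MLN0128-treated tumor lay above every normal liver for 26 members and below for 6 (Pgls, Taldo1, Rpe, Paics, Hprt and Tk1), against 38.8% and 36.3% of all genes. For everolimus these were 28 above and 3 below (Rpe, Paics and Tk1), against 38.5% and 35.4%. With MLN0128, 4 members were higher than under vehicle by the moderated test (Gart, Pfas, Impdh2 and Umps) and 7 were lower (G6pdx, Pgd, Taldo1, Rpe, Hprt, Aprt and Nme1), where 14.9% of all genes were higher and 17.1% lower. In 8 members every MLN0128-treated tumor lay above every vehicle-treated one and in 10 below, against 22.1% and 23.4% of all genes. The members' shares were thus near those of all genes, and their median difference was -0.10 (-0.01 over all genes). By direction of the tumor change, 4 of the 27 members that had risen were higher under MLN0128, 5 were lower and 18 passed in neither direction. With MLN0128 replicate 3 alone, limma's moderated test called 0 members higher (2 at an unadjusted p under 0.05) and 3 lower (Hprt, Aprt and Nme1), where it called 4.72% of all genes higher and 7.50% lower. Leaving out vehicle replicate 1, vehicle replicate 3 or MLN0128 replicate 1 left 2 members higher. The split also moved with the scaling: 9 were higher and 7 lower with plain library totals (23.1% and 12.7% of all genes), and 12 higher and 2 lower with equal sums of FPKM (24.6% and 8.81% of all genes). These scalings moved the median of all genes by 0.10 and 0.20.

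With everolimus, 5 members were higher than under vehicle (Pfas, Cad, Umps, Impdh2 and Dut) and 0 were lower by limma's moderated test, where 3.78% of all genes were higher and 6.05% lower. At an unadjusted p under 0.05, 2 members were lower under everolimus (G6pdx and Pgd), and limma's voom on the recovered reads called 0. The median difference of the 36 was 0.16 (0.03 over all genes). In 12 members every everolimus-treated tumor lay above every vehicle-treated one and in 4 below, against 17.6% and 14.8% of all genes. Leaving out vehicle replicate 3, everolimus replicate 1 or everolimus replicate 3 left 1 member higher each time, leaving out vehicle replicate 1 left 2, and vehicle replicate 2 or MLN0128 replicate 1 left 3. Pfas was kept throughout. Limma's treat test called 0 members with either drug (1 at an unadjusted p under 0.05, lower under MLN0128, and 0 by treat after voom), where it called 0.479% of all genes higher and 1.65% lower under MLN0128, and 0.0347% and 0.570% under everolimus. Between the drugs it called 0.00695% of all genes higher and 0.0347% lower, and no member.

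**Figure D3:**
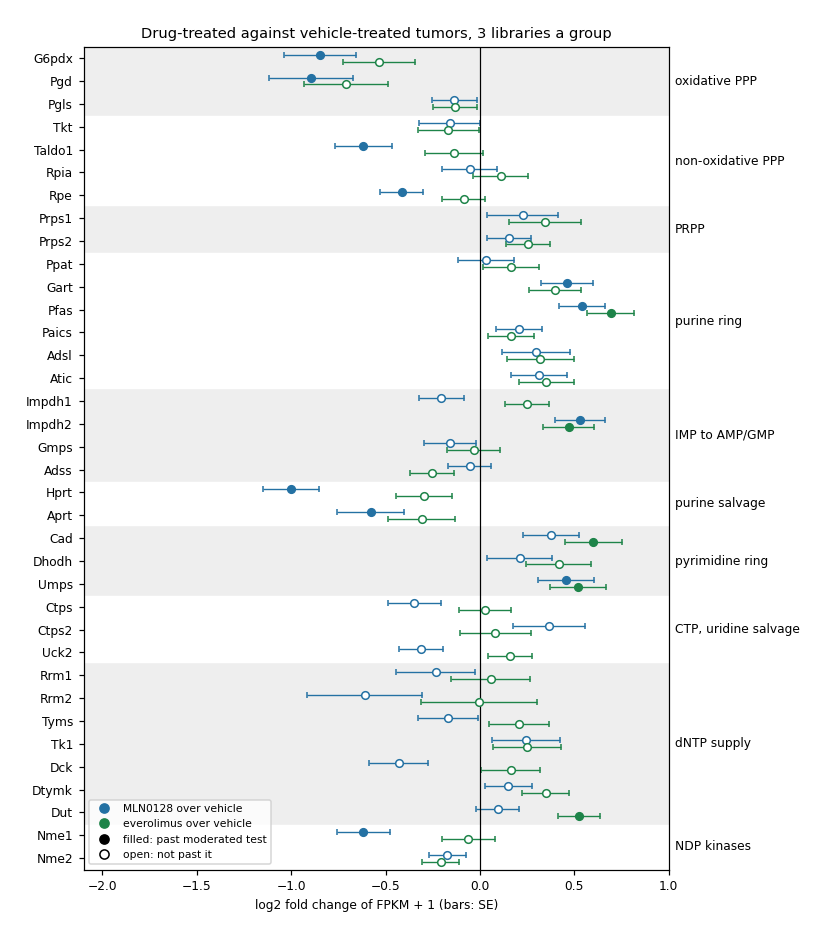
The horizontal axis gives the log2 fold change of FPKM + 1 over vehicle for MLN0128 (blue) and everolimus (green), with bars for the SE, and both are computed against the same 3 vehicle libraries. Filled points passed the moderated test. Filled blue points lie left of 0 in the pentose phosphate and purine salvage arms, and filled points of both colors lie right of 0 at Pfas, Impdh2 and Umps.

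Set against each other, the drugs differed at 6 members, all lower under MLN0128 than under everolimus (Hprt, Nme1, Dck, Uck2, Impdh1 and Dut), and 0 were higher by limma's moderated test, at an unadjusted p under 0.05 or after voom. Over all genes 3.99% were higher and 5.54% lower. Of the 36 members 29 had a negative difference, with a median of -0.17 (-0.03 over all genes). For genes of the purine ring the differences ran from -0.15 to 0.06, with no member past the test. These 6 calls were sensitive to single libraries, since 0 members were called without everolimus replicate 1 or everolimus replicate 3 (8 and 7 at an unadjusted p under 0.05), 1 call was made without MLN0128 replicate 1, 2 without MLN0128 replicate 2 and 3 without MLN0128 replicate 3 or NL replicate 1. With MLN0128 replicate 3 alone limma called 0 members, and 8 had an unadjusted p under 0.05, where it called 0.507% of all genes higher and 0.646% lower.

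Ratios between isozymes, taken as the difference of their log2(FPKM + 1) within a library, removed scaling between libraries only for well expressed pairs. Part of it remained where an isozyme was at a few FPKM or less. This held for Impdh1, Ctps, Ctps2 and Rrm2 in normal liver, and for Nme2 and Rrm2b in all groups. With 3 libraries a group the exact two-sided permutation test cannot go below p = 0.1, and over the 15 comparisons of 5 pairs the adjusted p was 0.214 or more. The Impdh1 over Impdh2 ratio was -2.90 ± 0.22 (SD, n = 3) in normal liver and -1.17 ± 0.17 under vehicle, without overlap (exact permutation p = 0.1). It was -1.91 ± 0.15 under MLN0128 and -1.39 ± 0.12 under everolimus, each below every vehicle-treated tumor. The Ctps over Ctps2 ratio went from -0.45 ± 0.24 in normal liver to 1.5 ± 0.13 under vehicle, and was 0.79 ± 0.43 under MLN0128 and 1.45 ± 0.23 under everolimus. With MLN0128 its 2 lowest values came from the libraries with Xist RNA, and Ctps2 is X-linked while Ctps is not.

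Prps1 over Prps2 went down in the tumors, from 1.96 ± 0.13 to 1.25 ± 0.45 (SD, n = 3), and the drug-treated tumors overlapped vehicle. Nme1 over Nme2 was 2.64 ± 0.14 in normal liver, 3.04 ± 0.23 under vehicle, 2.60 ± 0.18 under MLN0128 and 3.18 ± 0.15 under everolimus. Rrm2 was also set against Rrm2b, the small subunit that p53 induces and that serves cells outside S phase. Rrm2b had 0.782, 0.695 and 0.997 FPKM in normal liver, 1.54, 1.42 and 1.63 under vehicle, 2.04, 1.25 and 1.56 under MLN0128 and 1.23, 0.998 and 1.12 under everolimus. Rrm2 over Rrm2b was 0.55 ± 0.55 in normal liver and 4.53 ± 0.10 under vehicle, 3.88 ± 0.58 under MLN0128 and 4.78 ± 0.18 under everolimus.

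**Figure D4:**
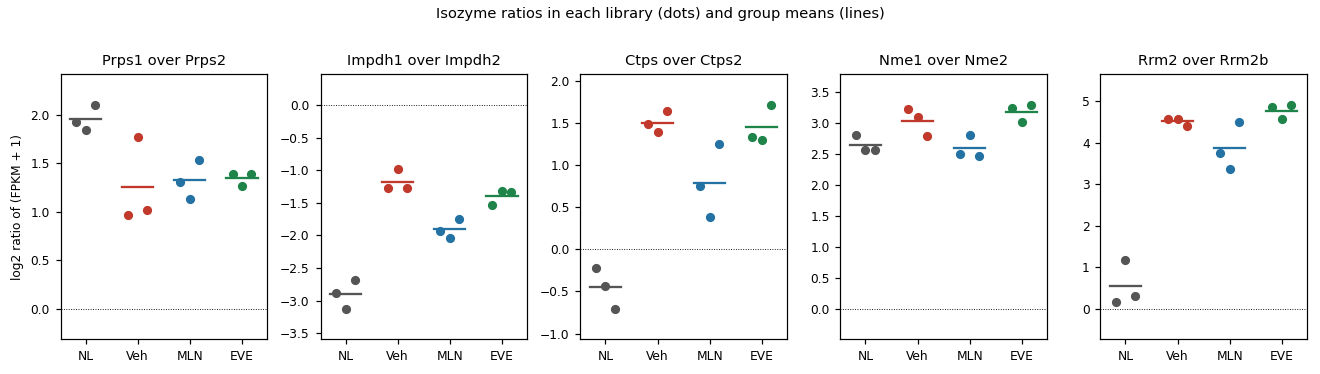
The vertical axis gives the log2 ratio of (FPKM + 1) of the first isozyme over the second in each library, by group, with dots for libraries and lines for group means. The dotted line marks equal levels. Impdh1 over Impdh2 and Ctps over Ctps2 shift upward from normal liver to vehicle, and Rrm2 over Rrm2b goes from 0.55 to 4.53.

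Genes of neighbouring pathways, from lists chosen by role, were set beside the members. Those named here are examples picked without a set rule. Of 18 tested genes of purine and pyrimidine breakdown, 10 fell in the tumors and 5 rose, with a median log2 fold change of -1.29. Uricase (Uox) had a mean of 909 ± 186 FPKM (SD, n = 3) in normal liver and 39.4 ± 17.3 under vehicle (log2 fold change -4.57 ± 0.34). Dpys, which opens the pyrimidine ring, went from 84.3 ± 10.2 to 1.33 ± 1.18 FPKM (-5.32 ± 0.46), and Dpyd, the enzyme before it, from 66.9 ± 6.35 to 3.03 ± 0.92 (-4.10 ± 0.29). The ectonucleotidase Nt5e went the other way, from 1.23 ± 0.23 to 17.1 ± 3.16 FPKM (3.01 ± 0.16). With the drugs, Nt5e fell by 0.78 ± 0.16 (MLN0128) and by 0.71 ± 0.16 (everolimus) on the log2 scale, and cytidine deaminase (Cda) fell by 1.92 ± 0.31 and by 1.21 ± 0.31. In all, 6 of these genes fell and 1 rose under MLN0128, against 17.1% and 14.9% of all genes. With everolimus 3 fell, against 6.05% of all genes.

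Among 25 other kinases, salvage and supply enzymes, 10 rose and 7 fell in the tumors, with a median of -0.10. Dctd, which makes dUMP from dCMP, rose by 2.91 ± 0.14, from 0.0631 ± 0.0399 to 6.98 ± 0.63 FPKM, and rose again under MLN0128 (0.94 ± 0.14) and everolimus (0.73 ± 0.14). Adenosine kinase (Adk) fell by 1.98 ± 0.25 in the tumors. The UMP and CMP kinase Cmpk1 fell in the tumors and again with each drug, from 57.7 ± 4.61 FPKM in normal liver to 33.5 ± 0.38 under vehicle, 22.3 ± 0.36 under everolimus and 15.4 ± 1.33 under MLN0128. Of 4 other pentose phosphate and ribose genes, 3 fell in the tumors, among them H6pd, the dehydrogenase of the endoplasmic reticulum, from 120 ± 23.6 to 43.3 ± 2.64 FPKM (-1.44 ± 0.21). Its cytosolic counterpart G6pdx had moved in the opposite direction.

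Markers of other cell types were measured beside the drug comparisons, and their part in the drug results was not tested. The cell cycle list summed to 253 to 524 FPKM under MLN0128 and 385 to 515 under everolimus, overlapping vehicle, and 1 of its 22 genes rose and 1 fell under MLN0128. The hepatocyte markers summed to 2032 to 4709 FPKM under MLN0128 and 3738 to 8620 under everolimus, and 4 of 10 fell and 2 rose under MLN0128. Macrophage markers, of which 7 of 10 had fallen in the tumors, summed to 125 to 184 FPKM under vehicle, 67.2 to 122 under MLN0128 and 89.6 to 222 under everolimus, with 3 lower under MLN0128. Of 5 cholangiocyte markers tested, 4 had risen in the tumors and 3 fell with each drug. The list summed to 41.8 to 96.7 FPKM under vehicle, 16.6 to 32.8 under MLN0128 and 21.2 to 66.2 under everolimus. Erythroid genes summed to 289 to 653 FPKM in normal liver, 35.2 to 88.5 under vehicle, 16.1 to 40.6 under MLN0128 and 107 to 131 under everolimus. Endothelial markers (4 of 7 lower in the tumors) summed to 53.3 to 63.7 FPKM in normal liver and 13.3 to 19.9 under vehicle. Of 8 stellate and fibroblast markers, 5 rose and 3 fell in the tumors, with a median log2 fold change of 0.89. Their sums were 61.5 to 84.6 FPKM in normal liver and 31.8 to 74.3 under vehicle. The T and NK cell list and the B cell list each summed to at most 4.83 FPKM in any library. All 17007 listed genes had a value above 0 in some library, so that no listed marker could be at 0 in all. Only 6 of 7 cholangiocyte markers and 7 of 8 T and NK cell markers were listed.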

How the data were processed

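The members, gene lists and tests were chosen with earlier results of these data known, so no list is independent evidence. Novogene made and sequenced the libraries from whole tissue. The authors counted the reads on Ensembl genes, moved to Entrez identifiers and added symbols with org.Mm.eg.db. The deposited values are FPKM, rounded to 3 significant digits. The submitters' processing notes name FastQC 0.11.7 and GRCm38, and the aligner is not given in the sources used here. The study's own test on its counts was glmTreat.

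A pseudocount of 1 was added before taking log2, and a gene was kept if 3 or more of the 12 libraries reached 0.5 FPKM. All 12 libraries entered 1 linear model in limma 3.58.1 (R 4.3.3) with an intensity trend in the prior variance and 8 residual degrees of freedom. The moderated test and treat against a fold of 1.5 were called at a Benjamini-Hochberg adjusted p under 0.05. The main fit used no count test, since FPKM are not counts, and voom was run on recovered reads as an alternative. FPKM times the exon length in GENCODE M21 (GRCm38), found for 16864 symbols, gave whole reads within 0.1 for 98.2% to 98.9% of values under 20 reads, where chance gives 20.0%. These reads were used for depth, plain library totals and voom, whose library sizes were those the deposited FPKM imply, in place of TMM factors. Separate mice stand behind the libraries, and p-values measure their spread. In each arm, the named genes were the 2 members with the largest change between tumor and normal liver. Every member past the moderated test with a fold above 1.5 in a drug comparison was named too, as were both genes of each isozyme pair. Further members with printed values were marked as chosen after their values were seen, except Ppat, which also falls outside the rule. Genes named from the lists of neighbouring pathways followed no set rule. Promoters came from RefSeq. Isozyme ratios were compared by exact two-sided permutation tests with scipy 1.17.1. The model was tested on simulated data before use.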

Additional observations from a re-analysis of the deposited data

Results flagged for a closer look

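At 6 members the effects of MLN0128 and everolimus, both measured against the same vehicle-treated tumors, differed from each other by limma's moderated test of the direct difference, where 5.54% of all genes were lower with MLN0128. In log2 units, MLN0128 minus everolimus was -0.70 for Hprt, -0.59 for Dck, -0.56 for Nme1, -0.47 for Uck2, -0.45 for Impdh1 and -0.43 for Dut. For each gene all 3 MLN0128-treated tumors lay below all 3 everolimus-treated tumors, as for 15.2% of all genes. These members were picked by the test on the same libraries, so this separation adds no support. For Hprt and Nme1 the difference lay in the MLN0128 arm, which was lower than vehicle, and for Dut in the everolimus arm, which was higher. For Dck, Uck2 and Impdh1 neither drug passed the test against vehicle.

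Leaving out everolimus replicate 1 gave adjusted p of 0.0557 (Hprt), 0.10 (Dck), 0.096 (Nme1), 0.0997 (Uck2), 0.0775 (Impdh1) and 0.115 (Dut), and leaving out everolimus replicate 3 gave 0.0705, 0.152, 0.133, 0.12, 0.137 and 0.137. Without MLN0128 replicate 1 the call of Hprt alone was kept, and the others had adjusted p of 0.0802 to 0.124. Over 22 alternatives the adjusted p ran from 0.0117 to 0.0759 for Hprt, 0.0222 to 0.398 for Dck, 0.0201 to 0.133 for Nme1, 0.0148 to 0.243 for Uck2, 0.0288 to 0.443 for Impdh1 and 0.017 to 0.308 for Dut, and the direction was the same in all of them. MLN0128 replicates 1 and 2 also hold Xist RNA, and its part in these differences was not tested beyond the values with replicate 3 alone, which were -0.88 for Hprt, -0.73 for Nme1, -0.56 for Uck2, -0.42 for Dut, -0.37 for Impdh1 and -0.35 for Dck.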

How the results depend on the processing

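The tumor increases depended least on the processing. Leaving out each library once, 21 to 23 members rose by treat and 1 to 2 fell (2 without NL replicate 2), 27 to 29 rose by the moderated test, and the median log2 fold change was 1.2 to 1.34. That median was 1.54 with a pseudocount of 0.1, 1.59 with voom, 2.02 with plain library totals and 2.42 with equal sums of FPKM (TPM). Calls of lower members moved with the scaling: 0 by treat and 1 by the moderated test with plain totals, and 0 by both with TPM, while treat against 1.2-fold called 3. Rpe reversed to 0.33 (plain totals) and 0.59 (TPM), and Tk1 to 0.18 (TPM). TPM moved the median of all genes by 0.94 between normal liver and tumor and by 0.21 between the drugs.

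The drug results were small and changed more. With MLN0128 the members called higher were 9 (plain totals), 12 (TPM), 0 (replicate 3 alone) and 0 (fold above 1.5), and 2 to 5 with a library left out. Those called lower were 2 (TPM), 3 (replicate 3 alone) and 5 to 10 with a library left out, and treat against 1.2-fold called 2. The median moved from -0.10 to 0.037 (plain totals) and 0.13 (TPM). With everolimus the 5 higher members became 2 with a pseudocount of 0.1, TPM, the 2 groups alone or a fold above 1.5, 3 with MLN0128 replicate 3 alone, and 1 to 5 with a library left out. The everolimus differences of G6pdx and Pgd passed as lower with MLN0128 replicate 3 alone. Lower members numbered 0 to 2 with a library left out (1 without vehicle replicate 2 or MLN0128 replicate 2, 2 without MLN0128 replicate 3). The 6 members lower with MLN0128 than with everolimus became 2 (plain totals), 0 (TPM), 0 (the 2 groups alone), 0 (replicate 3 alone), 2 (fold above 1.5) and 0 to 8 with a library left out, and the median became 0.054 with TPM. A pseudocount of 0.1 moved 3 isozyme differences, Impdh1 over Impdh2 to 2.31 and Ctps over Ctps2 to 2.17 between tumor and normal liver, and Rrm2 over Rrm2b to 0.42 with everolimus. The cause of these changes was not tested.

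Replicate numbers are shared by the groups but did not pair the libraries. Same-numbered libraries had correlations of their deviations from the group means of -0.29 to 0.15, with 1 of 18 pairs over 0.1, and 7 of 36 comparisons of a library with another group were highest at its own number. With the replicate block, 2 members were higher with everolimus, Pfas among them, and 2 were lower under MLN0128 than under everolimus.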
